A study of Homo sapiens with 9 samples.

Results

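The mitochondrial genes under SRA peaks were 8 of the 15 ribosomal RNA and protein genes of the human mitochondrial genome, namely MT-RNR1, MT-RNR2, MT-ND1, MT-ND2, MT-CO1, MT-CO2, MT-ATP8, and MT-ATP6. They were chosen by the measured peaks themselves: every peak on chromosome M was taken from 6 peak lists, and a gene was a member when a peak of an SRA list covered at least 1 bp of it. SRA lists 1, 2, and 3 held 9, 10, and 8 such peaks among 4982, 4946, and 5187 peaks in all. LacZ lists 1, 2, and 3 held 0 among 2676, 2617, and 290. Because these peaks selected the genes, their number, bases, and scores are given as a description, without a test.

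The peaks come from chromatin isolation by RNA purification followed by sequencing (ChIRP-seq) in K562, an established cell line from human erythroleukemia. Cells are crosslinked in this assay, and biotinylated DNA probes hybridized to an RNA recover the chromatin attached to it. The probes were directed against the long non-coding RNA SRA (steroid receptor RNA activator) in 3 samples and against LacZ, a bacterial transcript that human cells lack, in 3 control samples. All 6 samples were K562 cells fixed with glutaraldehyde, and 3 input samples without probes were not analysed here. The identity of the cells could not be checked by marker genes, because peak lists hold no expression values. Each sample has its own list of MACS peaks in hg19, with a start, an end, and a score for each peak. The lowest score in the lists was 40, so weaker enrichment is not listed. Wherever peaks of different SRA lists overlapped, their starts and ends were identical, so the SRA lists were counted as 1 sample and their spread is not a replicate error. Read depth is unknown.

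The mitochondrial genome is a small circular DNA present in many copies in a cell. It encodes ribosomal RNAs, transfer RNAs, and core subunits of the respiratory chain and of ATP synthase, while all other mitochondrial proteins are encoded in the nucleus. Both of its strands are transcribed into long precursors from promoters in a non-coding control region, and tRNAs that lie between the other genes mark where many of these precursors are cut.

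SRA peaks lay at 10 distinct positions on chromosome M, and together they reached from base 1 to base 8768 in hg19. They covered 7114 bp, or 81.1% of these 8768 bases, and 6516 bp (74.3%) were under a peak in all 3 SRA lists. Neighbouring peaks were separated by gaps of 18 to 533 bp. No peak of any list was found after base 8768. Gene bounds were taken from GENCODE 44 on GRCh38, whose mitochondrial numbering can differ from that of hg19 by a few bases. All 37 mitochondrial genes were compared with the peaks, and 17 were covered by at least 1 bp. These 17 assignments were the same with gene bounds shifted by up to 5 bases in either direction. Numbers of bases per gene below carry the same uncertainty at the edges of peaks.

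Of the 17 genes, 5 were covered over their whole length, and their sequences are shown because they are the transcripts that peaks enclosed completely. They are MT-ATP8, which encodes a small subunit of ATP synthase, and the tRNA genes for phenylalanine (MT-TF), valine (MT-TV), leucine (MT-TL1), and aspartate (MT-TD). The sequences are the transcripts of GENCODE 44 on GRCh38, written 5′ to 3′. Capitals mark the last 46 bases of MT-ATP8, which are also the first bases of MT-ATP6.
MT-ATP8: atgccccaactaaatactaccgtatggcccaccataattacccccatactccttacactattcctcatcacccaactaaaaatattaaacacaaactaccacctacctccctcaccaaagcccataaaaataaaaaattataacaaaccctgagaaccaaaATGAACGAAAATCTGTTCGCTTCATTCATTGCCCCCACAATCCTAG
MT-TF: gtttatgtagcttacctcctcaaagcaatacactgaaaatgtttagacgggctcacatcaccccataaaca
MT-TV: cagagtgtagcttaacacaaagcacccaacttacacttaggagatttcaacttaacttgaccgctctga
MT-TL1: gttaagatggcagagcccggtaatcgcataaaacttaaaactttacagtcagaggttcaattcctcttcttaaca
MT-TD: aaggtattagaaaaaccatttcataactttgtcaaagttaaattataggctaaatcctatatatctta

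The ribosomal RNA genes were the most completely covered class, with 92.6% of their bases under peaks. MT-RNR1, which encodes the RNA of the small mitochondrial ribosomal subunit, had 787 of 954 bp (82.5%) under peaks in each SRA list. The peak at chrM:1-1069 covered 422 bp (44.2%) of MT-RNR1 and the whole of MT-TF. It scored 394, 497, and 261 in SRA lists 1, 2, and 3. By the same bounds, 53.9% of this peak (53.4 to 54.3% with the bounds shifted by 5 bases) lay before MT-TF, in the control region. The next peak, chrM:1237-1934, covered 365 bp (38.3%) of MT-RNR1, the whole of MT-TV, and 264 bp (16.9%) of MT-RNR2. Its scores were 211, 256, and 144. MT-RNR2, which encodes the RNA of the large ribosomal subunit, had 1541 of 1559 bp (98.8%) under peaks, and the 18 uncovered bases were the gap between its peaks.

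Most of MT-RNR2 lay under the widest mitochondrial peak, chrM:1953-4154, which spanned 2202 bp. This peak covered 1277 bp (81.9%) of MT-RNR2, the whole of MT-TL1, and 848 of 956 bp (88.7%) of MT-ND1, a membrane subunit of respiratory complex I. It scored 459, 617, and 235 in SRA lists 1, 2, and 3, which ranked it 1, 1, and 3 among all peaks of these lists. The peak over MT-TF and the start of MT-RNR1 ranked 3, 3, and 2. The order of these peaks therefore differed between the lists: the peak over MT-RNR2 and MT-ND1 was the higher in lists 1 and 2, and the peak over MT-RNR1 was the higher in list 3.

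Complex I, which passes electrons from NADH to ubiquinone, had peaks over 2 of its 7 mitochondrial genes and over 25.1% of their summed length. Besides MT-ND1, the covered gene was MT-ND2, with 750 of 1042 bp (72.0%) under peaks in each SRA list. Its peak at chrM:4688-5197 lay wholly within the gene and scored 189, 229, and 126. A narrower peak at chrM:5272-5548 covered 240 bp of MT-ND2 and 54.4% of MT-TW, the gene of the tryptophan tRNA, and scored 137, 163, and 90.5. The widest gap between mitochondrial peaks, 533 bp, lay between the peak that ended in MT-ND1 and the one that began in MT-ND2. The tRNA genes MT-TI, MT-TQ, and MT-TM, which lie between these genes, had no bases under a peak.

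Complex IV, or cytochrome c oxidase, had peaks over 2 of its 3 mitochondrial genes. MT-CO1 encodes the catalytic subunit and was the only member whose covered length differed between the lists. It had 1047 of 1542 bp (67.9%) under peaks in SRA lists 1 and 2, and 567 bp (36.8%) in list 3. The peak common to the 3 lists, chrM:6173-6739, scored 246, 301, and 166. The other peak, chrM:6887-7366, scored 62.1 in list 1 and 84.0 in list 2 and was absent from list 3. MT-CO2, which encodes the subunit that accepts electrons from cytochrome c, had 668 of 684 bp (97.7%) under the peak at chrM:7473-8253. This peak also enclosed MT-TD and scored 203, 255, and 125.

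Both mitochondrial genes of ATP synthase (complex V) were members. They lay under chrM:8357-8768, the last mitochondrial peak, with scores of 165, 197, and 113 in SRA lists 1, 2, and 3. All 207 bp of MT-ATP8, the sequence printed above, were under this peak. MT-ATP6, which encodes a subunit of the proton channel, had only 242 of 681 bp (35.5%) under the peak and was the least covered member. It was also the last gene inside the covered part. MT-CO3, the next gene along the molecule, had 0 of 784 bp under a peak.

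**Figure D1:**
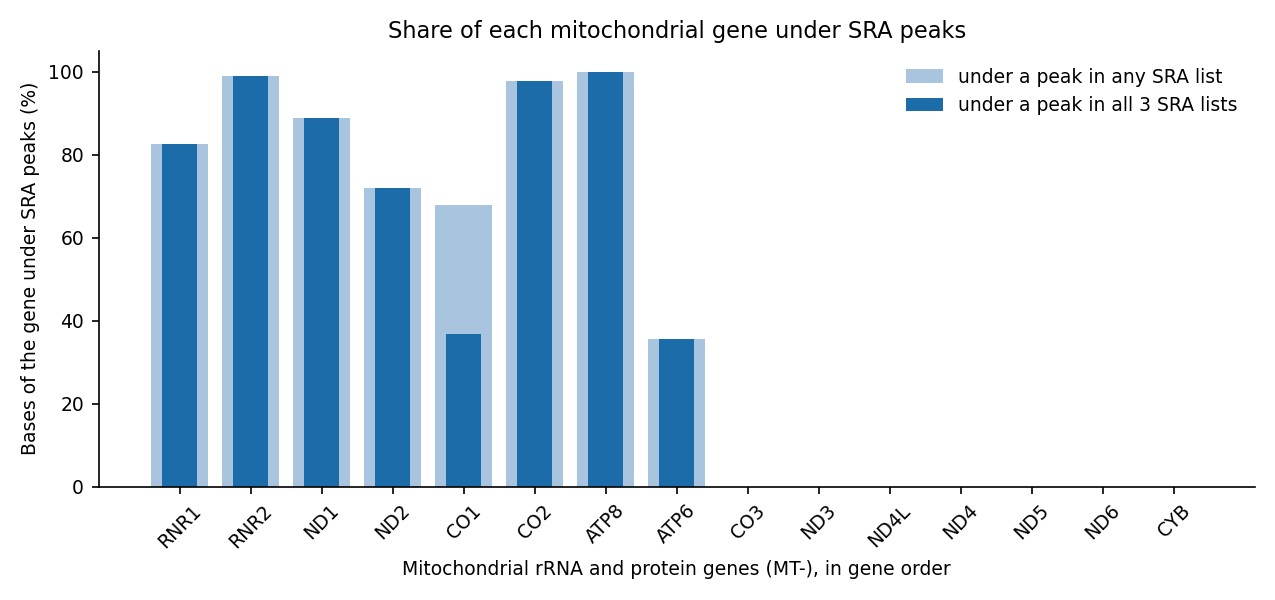
Share of each of the 15 mitochondrial ribosomal RNA and protein genes under SRA peaks, in percent of its bases, in gene order (gene names without MT-). Wide light bars give bases under a peak in any SRA list and narrow dark bars bases under a peak in all 3 SRA lists. MT-CO1 is at 67.9% in any list and 36.8% in all 3, and the 7 genes from MT-CO3 to MT-CYB are at 0.

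Transfer RNA genes between the members were covered in part: MT-TI, MT-TQ, and MT-TM had no bases under a peak, nor had MT-TA and MT-TN, which lie between MT-ND2 and MT-CO1. Of the 22 tRNA genes, 9 had at least 1 bp under a peak in any SRA list and 7 in all 3 lists. Besides the 4 that were wholly covered and MT-TW, these were MT-TS1 with 60.9% and MT-TK with 11.4% of their bases under a peak. MT-TK had only 8 bp under the peak over the ATP synthase genes, and it was the 1 assignment lost when gene bounds were shifted by 20 bases, which removed it in 1 direction. MT-TC and MT-TY, the genes of the cysteine and tyrosine tRNAs, had 81.8 and 98.5% of their bases under chrM:5773-5890. This peak was in SRA list 2 alone, where it scored 43.4 and ranked 2799. Genes on the plus strand of the reference were covered in 14 of 28 cases and genes on the minus strand in 3 of 9.

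The part of the molecule after base 8768 held 15 genes that start there, 8 of them tRNA genes, and none had a peak. The 7 others were MT-CO3 of complex IV, MT-ND3, MT-ND4L, MT-ND4, MT-ND5, and MT-ND6 of complex I, and MT-CYB, the cytochrome b of complex III. Complex III was thus the only complex with a mitochondrial gene but no SRA peak. These genes stayed uncovered with bounds shifted by up to 5 bases and by 20 bases in either direction. Base composition was similar in the members and the 7 uncovered protein genes. Among tRNA genes, the median GC content was 40.8% in the 9 covered and 37.9% in the 13 uncovered ones. The GC content of the members ranged from 39.6 to 47.7% with a median of 44.85%, and that of the 7 uncovered genes from 40.2 to 46.6% with a median of 44.3%.

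Among the members, the order of scores followed position only in part. The highest score over a gene in SRA list 1 was 459 for MT-RNR2 and MT-ND1, which share a peak, followed by 394 for MT-RNR1 and 246 for MT-CO1. MT-CO2 followed with 203, MT-ND2 with 189, and MT-ATP8 and MT-ATP6, which also share a peak, with 165. The order was the same in list 2. In list 3 it differed in that MT-RNR1 came first, with 261, and MT-ND2 (126) came before MT-CO2 (125). The median of the highest scores over the 8 members was 224.5 in list 1, 278 in list 2, and 146 in list 3. As members that share a peak share its score, the 8 genes are not 8 separate measurements.

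**Figure D2:**
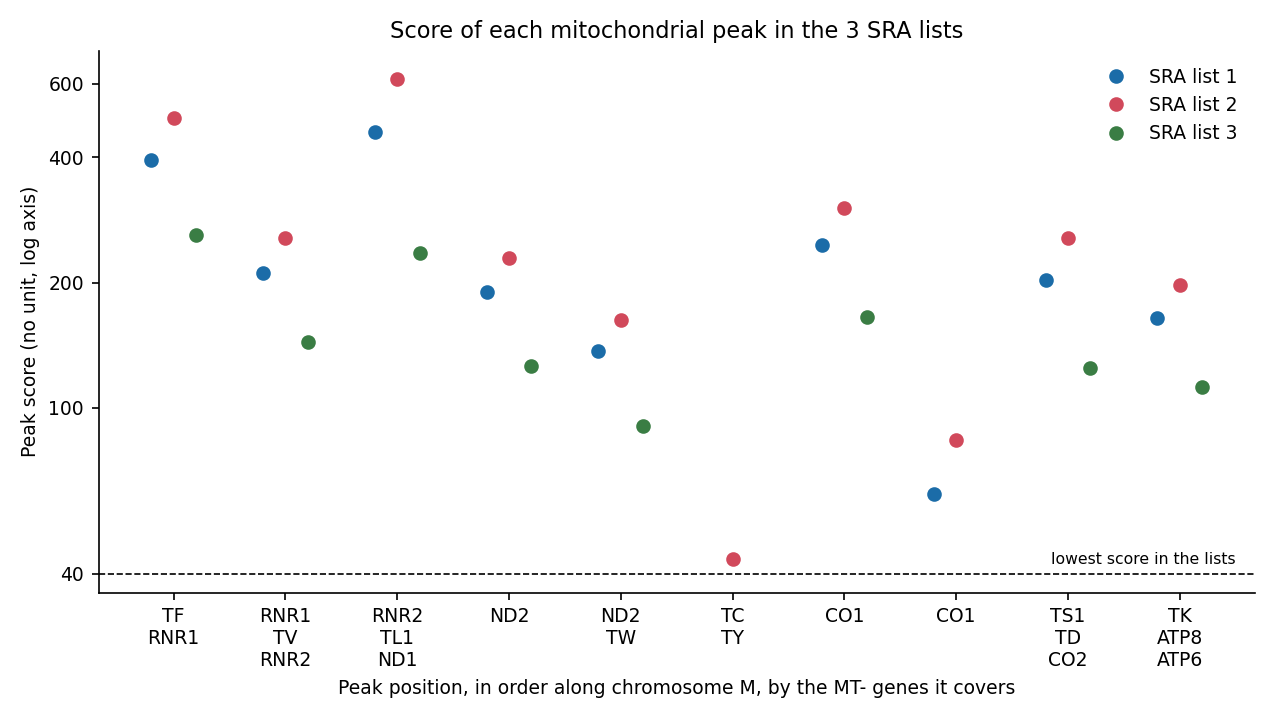
MACS score (log axis, no unit) of the 10 mitochondrial peak positions in SRA lists 1 (blue), 2 (red), and 3 (green), in order along chromosome M and named by the genes they cover (without MT-). The dashed line is the lowest score in the lists, 40. List 2 is the highest and list 3 the lowest at all 8 positions present in the 3 lists, and 1 position, over MT-TC and MT-TY, is in list 2 alone.

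The mitochondrial peaks were present in all 3 SRA lists at 8 of 10 positions, beside 1859 of 8658 positions (21.5%) over all chromosomes. At these 8 positions the score was highest in list 2, intermediate in list 1, and lowest in list 3. The score of list 2 over that of list 1 ranged from 1.19 to 1.34 with a median of 1.22, and the score of list 3 over that of list 1 from 0.51 to 0.68 with a median of 0.66. The ratio of list 3 to list 1 was lowest for the peak over MT-RNR2 and MT-ND1. The same order was found at 222 of all 1859 shared positions (11.9%). Nothing is read from these counts, because the same peaks selected the members.

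Off chromosome M, 214 of 1851 shared positions (11.6%) had this order, and the median ratios were 1.0 for both list 2 over list 1 and list 3 over list 1. Many of these positions could not have a strict order, since 294 had the same score in all 3 lists and 250 in 2 of them, whereas no mitochondrial position had equal scores. Among the 1307 without equal scores, 214 (16.4%) had the order and both median ratios were 1.01. Positions with scores like the mitochondrial ones were few. Only 9 positions off chromosome M had a mean score at or above that of the lowest mitochondrial position present in all 3 lists, and 4 of these 9 (44.4%) had the order seen at the mitochondrial genes. Their median ratios were 1.31 for list 2 over list 1 and 0.8 for list 3 over list 1.

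**Figure D3:**
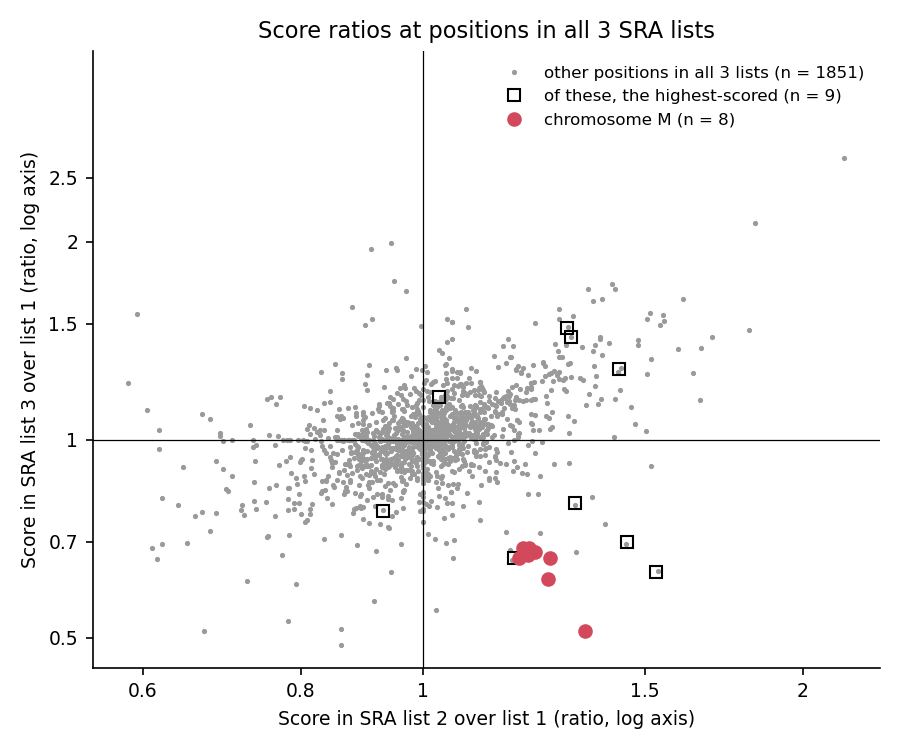
Score in SRA list 2 over list 1 (horizontal, log axis) against score in SRA list 3 over list 1 (vertical, log axis) for every position present in the 3 lists. Red points are the 8 mitochondrial positions, grey points the 1851 others, and open squares the 9 of these with a mean score at or above the lowest mitochondrial one. The mitochondrial positions lie together at 1.19 to 1.34 and 0.51 to 0.68.

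Peaks over the mitochondrial genes were wide and highly scored for their lists. Their median width was 567, 538.5, and 632.5 bp in SRA lists 1, 2, and 3, where all peaks had medians of 157, 157, and 158 bp. Their median score was 203, 242, and 135, where all peaks had medians of 43.8, 43.9, and 44.3. Scores over 100 were reached by 8 of 9, 8 of 10, and 7 of 8 mitochondrial peaks, beside 0.442, 0.425, and 0.405% of all peaks of these lists. A width over 500 bp was reached by 6 mitochondrial peaks in each list, beside 3.07, 3.38, and 3.97% of all peaks. The peaks that fell short in score were those over the end of MT-CO1 and over MT-TC and MT-TY, and in list 3 the peak over MT-ND2 and MT-TW.

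Wide peaks on other chromosomes mostly had lower scores. Peaks over 500 bp wide off chromosome M numbered 147, 161, and 200 in SRA lists 1, 2, and 3, with median scores of 51.1, 51.2, and 53.8. The 6 mitochondrial peaks of this width had median scores of 228, 279, and 155. Only 3, 3, and 6 of the other wide peaks scored at or above the lowest of these 6. The wide mitochondrial peaks had a median width of 739.5 bp in each list, and the others medians of 1142, 1074, and 1064.5 bp.

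**Figure D4:**
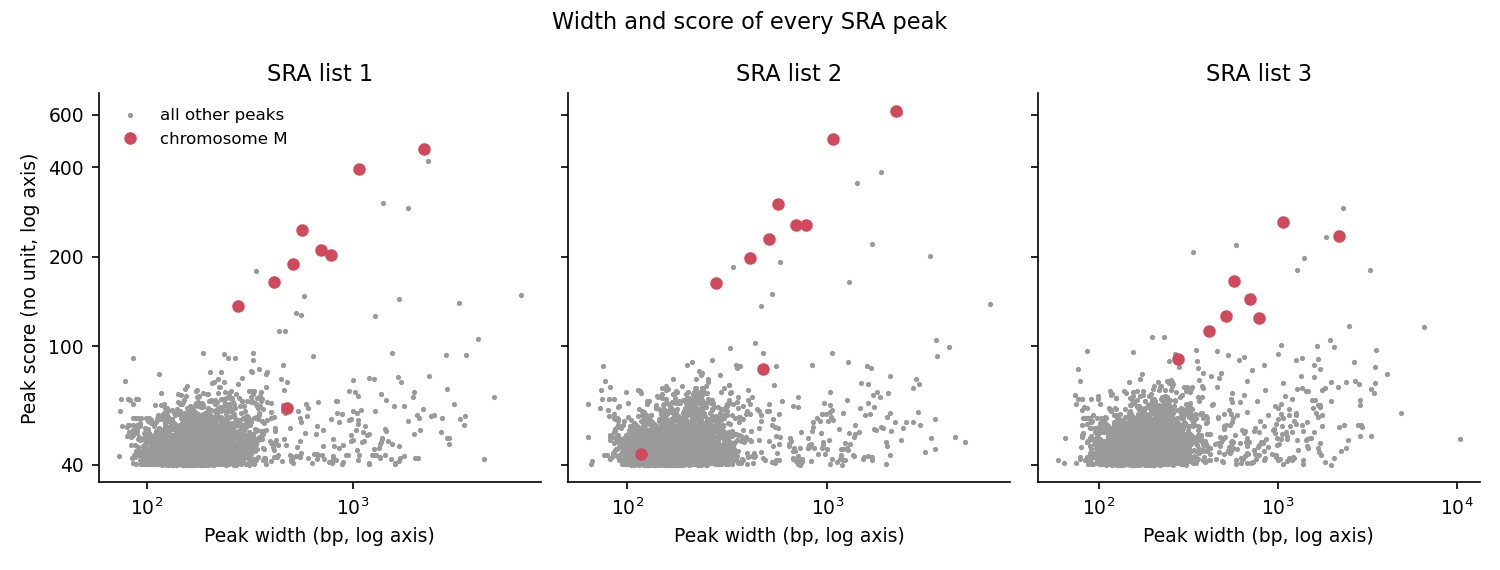
Width (bp, log axis) and MACS score (no unit, log axis) of every peak in SRA lists 1, 2, and 3. Red points are peaks on chromosome M and grey points all others. Of the mitochondrial peaks, 8, 8, and 7 score over 100, and the lowest is the peak over MT-TC and MT-TY in list 2.

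Nuclear positions with scores in this range are given for scale. The 3 with the highest mean score in all 3 SRA lists were chr6:58777061-58779371, with scores of 421, 610.0, and 293, a position on the unplaced contig Un_gl000220 from 126766 to 128622, with scores of 292, 386, and 232, and chr1:121484053-121485452, with scores of 302, 355, and 198. The peak over MT-RNR2 and MT-ND1 scored above each of these in lists 1 and 2, and below the first of them in list 3. Mitochondrial peaks made up 0.181% of the peaks of list 1 (95% Wilson interval 0.0951 to 0.343%), 0.202% of list 2 (0.11 to 0.372%), and 0.154% of list 3 (0.0782 to 0.304%). They made up 0.679, 0.688, and 0.58% of the bases under peaks. On chromosomes 1 to 22 and X, SRA peaks covered between 0.00454% (chromosome 13) and 0.52% (chromosome 22) of the bases up to the last peak. On chromosome M they covered 81.1% of the bases up to the last peak, but that peak lies far from the end of the molecule, and over the whole length of 16569 bases of the GRCh38 mitochondrial sequence the 7114 bp made up 42.9%.

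In the control lists no gene of the mitochondrial genome was covered. The 0 mitochondrial peaks among 5583 peaks of the 3 LacZ lists pooled allow a share of up to 0.0537% of listed peaks. Without LacZ list 3 the 0 of 5293 allow up to 0.0567%. Each limit is 3 counts over the number of peaks, and is not a Wilson bound. By the Wilson interval used for the SRA lists, the upper bounds were 0.143, 0.147, and 1.31% in LacZ lists 1, 2, and 3. The Wilson intervals of the LacZ lists therefore overlap those of the SRA lists, whose lower bounds were 0.0951, 0.11, and 0.0782%. The Wilson intervals describe each list on its own, and the LacZ limits describe pooled lists. Neither is a test of SRA against LacZ, because these counts selected the members. Intervals and limits cover counting error only and say nothing of enrichment below the lowest listed score. They also treat peaks as independent, which peaks of a list need not be. LacZ list 3 stood apart from the others, with a narrowest peak of 545 bp. Among LacZ peaks over 500 bp, the width of most mitochondrial SRA peaks, 0 of 364 were mitochondrial, which allows up to 0.824%. Without list 3 this was 0 of 74, which allows up to 4.05%. In SRA lists 1, 2, and 3, 3.92, 3.59, and 2.91% of peaks over 500 bp were mitochondrial. The highest score of any LacZ peak was 182, 138, and 83.0 in lists 1, 2, and 3.

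Parts of the mitochondrial genome also exist as copies in nuclear chromosomes, and reads from such a stretch match both places. Each gene was therefore searched for windows of 50 bases, the read length, with an exact copy in the nuclear chromosomes of GRCh38. Over the 8 members 2542 of 7233 windows (35.1%) had such a copy, with a median per gene of 36.3%. Over the 7 uncovered genes 471 of 5940 windows (7.93%) had one, with a median of 3.54%. The members ranged from 8.23% in MT-ATP8 to 50.6% in MT-CO1, and the uncovered genes from 0% in MT-ND3 and MT-ND4L to 30.9% in MT-CO3. The ranges overlapped, as MT-CO3 without a peak had a larger share than MT-RNR2 (15.6%), MT-ND1 (25.6%), MT-CO2 (29.0%), and MT-ATP8. Among tRNA genes, 93 of 181 windows (51.4%) in the 9 covered genes had such a copy, with a median per gene of 64.7%. In the 13 uncovered genes 97 of 249 (39.0%) had one, with a median of 10.0%. Both groups ranged from 0 to 100%. The wholly covered MT-TF and MT-TL1 were at 0%, and the partly covered MT-TW, MT-TS1, and MT-TK at 100%. Of the uncovered ones, MT-TI, MT-TG, MT-TS2, MT-TL2, MT-TT, and MT-TP were at 0%, and MT-TQ, MT-TA, MT-TN, and MT-TE at 100%. For each gene the nuclear alignment with the highest product of identity and aligned length was also taken. This choice favours long copies, and shorter ones can be closer, as 25.6% of MT-ND1 windows had an exact copy. For MT-ND2, MT-CO1, MT-CO2, MT-ATP8, and MT-ATP6 these alignments were on chromosome 1, with identities of 97.6 to 98.6%. That of MT-RNR1 was on chromosome 5 (95.7%), and those of MT-RNR2 (88.4%) and MT-ND1 (82.0%) were on chromosome 17. For the 7 uncovered genes these long alignments were all on chromosome 5, with identities of 86.0 to 95.8%. How reads that match more than 1 place were treated is not given in the sources used here, and the part of nuclear copies in the position of the peaks was not tested.

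**Figure D5:**
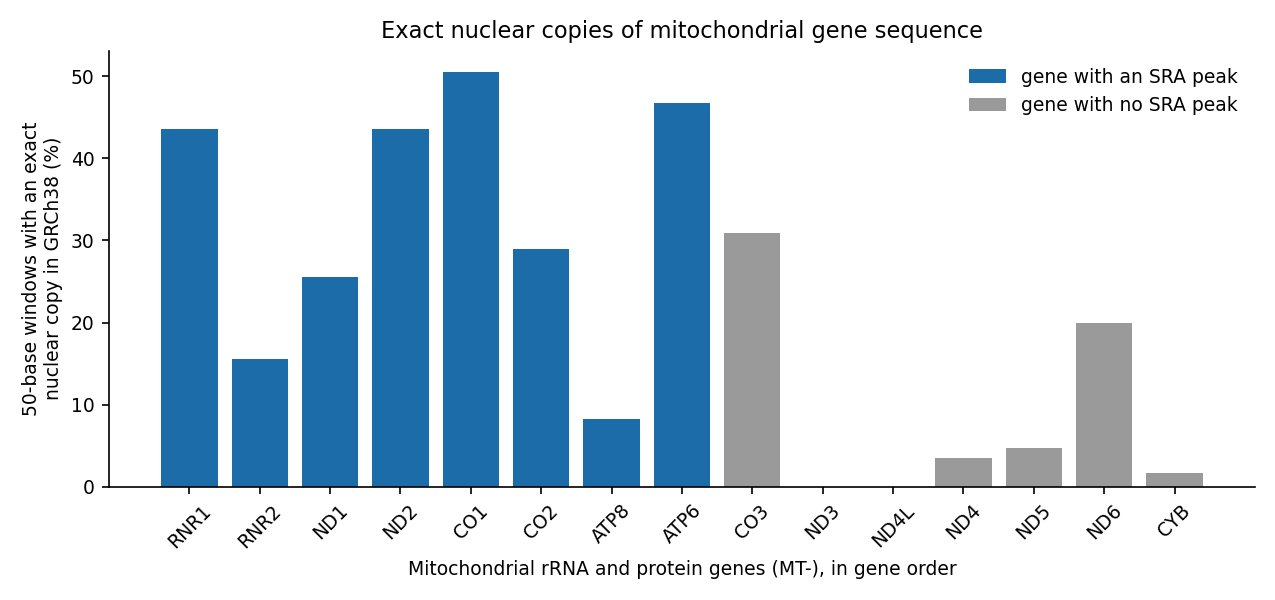
Share of 50-base windows of each mitochondrial ribosomal RNA and protein gene with an exact copy in the nuclear chromosomes of GRCh38, in percent, in gene order (gene names without MT-). Blue bars are the 8 genes with an SRA peak and grey bars the 7 without. The blue bars range from 8.23 to 50.6% and the grey bars from 0 to 30.9%.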

How the data were processed

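ChIRP-seq lists were used for 3 SRA and 3 LacZ samples of K562. The authors mapped single-end 50 bp reads to hg19, called peaks with MACS, and deposited a peak list for each sample. Per the labels CASAVA 1.8.2 and deepTools were also used. The MACS version and the control of each list are not given in the sources used here. The deposited score is headed −log10 of the p-value, but its lowest value of 40 is what 10 times −log10 of 0.0001 gives. This reading rests on the minimum alone, and scores were compared only as numbers.

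From the deposited starts and ends, peaks were assigned to the 37 mitochondrial genes of GENCODE 44 (GRCh38) by an overlap of at least 1 bp, with gene bounds also shifted by 1 to 5 and by 20 bases. No hg19 gene annotation was used, and GRCh38 positions are not given. The rule for named genes took all mitochondrial genes that a peak covered and the protein genes that none covered, and for nuclear positions the 3 highest in all SRA lists. The uncovered tRNA genes MT-TI, MT-TQ, MT-TM, MT-TA, MT-TN, MT-TE, MT-TG, MT-TS2, MT-TL2, MT-TT, and MT-TP were named in addition, after their values were seen. Nuclear copies were searched with BLAST+ 2.17.0 and by exact 50-base windows. The members and lists were chosen with earlier results of these data known. Interval counting was tested on simulated lists. No statistical test was run. Intervals were computed with scipy 1.17.1, tables with pandas 2.3.3 and numpy 2.4.6 under Python 3.11.15, and plots with matplotlib 3.10.9.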

Additional observations from a re-analysis of the deposited data

How the results depend on the processing

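When peaks up to 500 bp apart were joined, this reduced the 10 mitochondrial positions to 2 and the mean of 9 peaks per SRA list to 3, and moved their mean share of peaks from 0.179 to 0.0598% and of covered bases from 0.649 to 0.710%. Joining closes gaps by construction. Counting only bases under a peak in all 3 SRA lists lowered the covered share of the members from 79.9 to 73.6%, through MT-CO1 (67.9 to 36.8%), whose weaker peak was absent from list 3. The share of positions off chromosome M in the score order of lists 2, 1, and 3 was 11.6%, 17.1% among those over 500 bp, 44.4% among those scored at or above the lowest mitochondrial position, and 16.4% among those without equal scores. The last 3 shares are alternatives chosen after seeing the data, and the order itself was noticed in the data. Leaving out equal scores removes only positions that cannot have the order; the cause of the other shifts was not tested. For the main results, 57 other alternative values stayed within 1.5 times the count or within the interval. With each SRA list left out in turn, there were 9 to 10 positions, 6996 to 7114 bp, 15 to 17 genes, and a mean of 8.5 to 9.5 peaks per list, and LacZ lists held 0 throughout. No paired analysis was possible because the results come from no test: the peaks selected the members, and each LacZ list held 0 mitochondrial peaks. Read depth is unknown, gene bounds come from another build, and the SRA lists share peak bounds, so none of the values has a replicate error.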
